A study of Mus musculus with 12 samples.

Results

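Primary-response genes are transcribed within minutes of a stimulus from factors that are already present in the cell. In neurons, calcium entry and receptor signaling reach their promoters through CREB, which binds the cyclic AMP response element (CRE), and through serum response factor. The best known of them encode the FOS, JUN, EGR and NR4A transcription factors. The 10 genes described here are induced on the same schedule in many cells but belong to other families: the immediate-early response genes Ier2 and Ier5, the antiproliferative gene Btg2, the small MAF gene Maff, the nuclear protein gene Csrnp1, the salt-inducible kinase gene Sik1, the stress sensor genes Gadd45a, Gadd45b and Gadd45g, and Cyr61, which encodes a secreted matrix protein. They were chosen by name, with earlier results of these data known, and all 10 were found among the 39221 gene names in the tables of the series.

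Poly(A) RNA was sequenced from the bilateral prefrontal cortex (PFC) of 10-week-old male C57BL/6 mice (C57BL/6J in the methods of the study). Cocaine groups received 20 mg/kg of cocaine per day by intraperitoneal injection for 14 days, and every control group received saline on the same 14 days. Tissue was taken 2 h, 24 h or 7 days (7 d) after the last injection, so that the 6 groups were saline and cocaine at each time. Each group had 2 libraries, and each library pooled the PFC of 5 mice. The level of a gene is its FPKM (fragments mapped to its transcripts, scaled by their length and by the size of the library), of which the tables hold 1 pooled value per group. No value per library was used, so no value below has an error or a test, the sequencing depth behind it is unknown, and every ratio is a description of 1 pooled value against another. Time points came from different mice, and the FPKM of each time point were normalized separately. In whole tissue, more cells expressing a gene and more RNA per cell cannot be told apart.

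To show how large a ratio is in these data, each was set beside all genes whose mean over both groups was 1 FPKM or more. The share of such genes at least 1.5-fold higher in cocaine was 2.07% (of 12800) at 2 h, 1.39% (of 12982) at 24 h and 1.14% (of 12844) at 7 d. Most of the 10 genes lay between 1 and 10 FPKM, where low counts spread the ratios. Among genes at this level the shares were 2.81%, 1.53% and 1.55%, and 9 in 10 genes had a log2 ratio within a range of −0.42 to 0.47 (2 h), −0.34 to 0.35 (24 h) or −0.41 to 0.38 (7 d). The medians over all genes were within 0.03 of 0 on the log2 scale.

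At 2 h, 7 of the 9 genes that passed the level filter were at least 1.5-fold higher in cocaine (77.8%), and none was 1.5-fold lower. Sik1 had the largest ratio (3.03-fold), followed by Ier2, Csrnp1 and Btg2, all above 2-fold, while Gadd45a was below 1.5-fold and Gadd45g was lower in cocaine. At 24 h and at 7 d only 1 gene passed 1.5-fold each time, Csrnp1 of 9 genes (11.1%) and Cyr61 of 8 genes (12.5%). All 10 genes were higher in cocaine at 24 h, 9 of them at 2 h and 9 at 7 d, and 8 were higher at all 3 times. Some of these ratios were close to 1. Maff was at 1.01-fold at 24 h, and Ier5, Gadd45b and Gadd45g were at 1.01-fold, 1.02-fold and 1.04-fold at 7 d. The median log2 ratio over all genes was 0.025, 0.009 and −0.009 in order of time, and the share of all genes higher in cocaine was not counted. The genes that passed the filter had a median log2 ratio of 0.79 (2 h), 0.30 (24 h) and 0.44 (7 d). The value at 7 d rests on genes of low level: it was 0.028 over the 3 genes at 5 FPKM or more, and 0.299 with a pseudocount of 1, which also left no gene past 1.5-fold at 24 h or 7 d. For 7 of the 10 genes the ratio was largest at 2 h, and the exceptions were Gadd45a, Gadd45g and Cyr61.

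**Figure D1:**
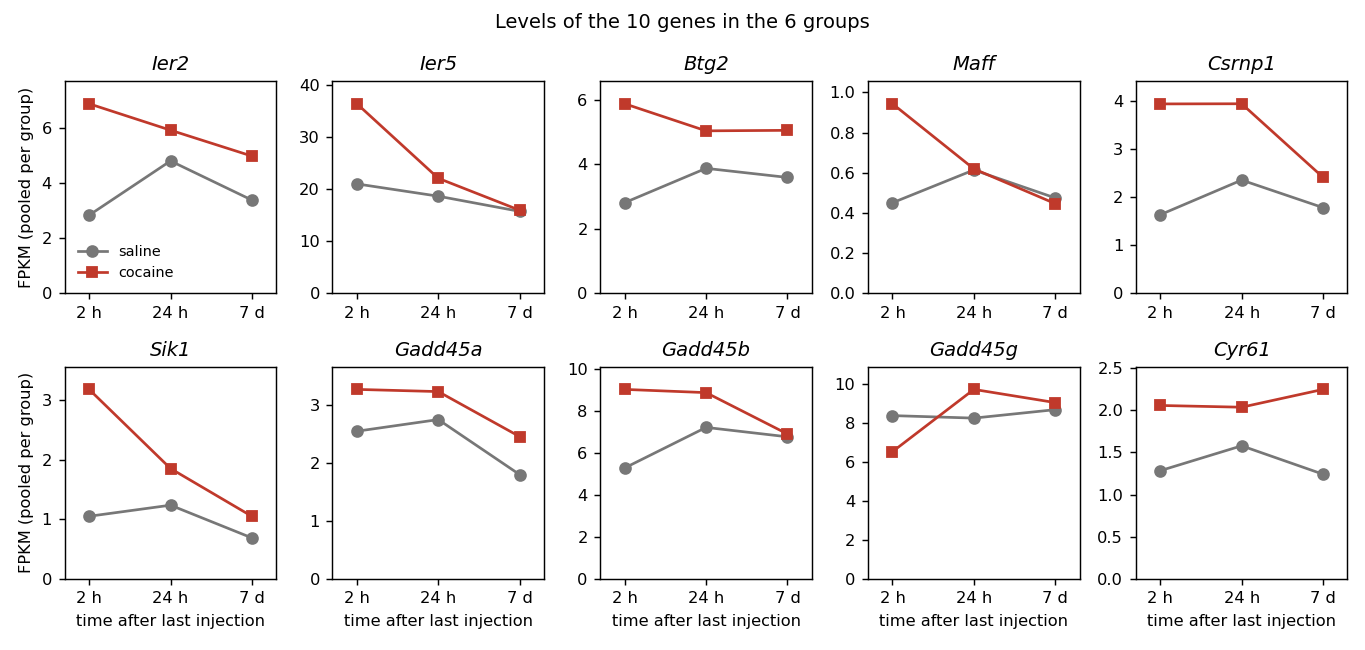
Level of each of the 10 genes in FPKM (linear axis from 0, its own scale per gene) against time after the last injection, with grey circles for saline and red squares for cocaine; each point is 1 pooled value of a group of 2 libraries, and lines only join groups of 1 treatment. Cocaine lies above saline at all 3 times for 8 genes, Gadd45g is below saline at 2 h, and Maff is slightly below it at 7 d.

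The promoters were read first, because CREB and serum response factor act there. RefSeq promoter windows (GRCm38.p6, running from upstream of the start site to shortly after it) were at hand for 8 of the 10 genes, all except Ier2 and Sik1. Where a gene had several start sites, the one nearest to the start of its deposited locus was used. For Csrnp1, whose deposited locus spans several genes, it was the one nearest to the start of the RefSeq gene. The shares of all genes below rest on the first listed window of each gene. Both strands were searched for the full CRE, TGACGTCA, and 2 of the 8 windows held it, those of Btg2 and Maff, against 1.88% of the windows of 27025 genes. The short CRE core TGACG, which is part of the full CRE, was in 4 of 8 windows (Btg2, Maff, Csrnp1 and Cyr61), against 21.0% of all. The E-box CACGTG was in 3 of 8 (Gadd45b, Gadd45g and Maff; 7.24% of all) and the TATA box TATAAA in 3 of 8 (Cyr61, Gadd45b and Gadd45g; 14.2% of all). The AP-1 site TGANTCA (7.93% of all) and the CArG box, the site of serum response factor (1.57% of all), were in none of the 8. A match is a run of letters in the window and not a measured binding site.

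The 200 bases before the start site are shown for the pair with a full CRE and, for contrast, for Cyr61 with a core only and Gadd45g with none; capitals mark the CRE or core. Those of Btg2 lie at chr1:134079156-134079355 (minus strand), of Maff at chr15:79347320-79347519 (plus strand), of Cyr61 at chr3:145649986-145650185 (minus strand) and of Gadd45g at chr13:51846475-51846674 (plus strand). The CRE begins 166 bases before the start in Btg2 and 29 bases before it in Maff, and the core of Cyr61 begins 58 bases before it.
Btg2: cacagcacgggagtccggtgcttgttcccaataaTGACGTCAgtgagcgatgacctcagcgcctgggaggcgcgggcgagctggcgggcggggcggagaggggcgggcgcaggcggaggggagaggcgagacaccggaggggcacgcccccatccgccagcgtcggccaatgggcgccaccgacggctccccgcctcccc
Maff: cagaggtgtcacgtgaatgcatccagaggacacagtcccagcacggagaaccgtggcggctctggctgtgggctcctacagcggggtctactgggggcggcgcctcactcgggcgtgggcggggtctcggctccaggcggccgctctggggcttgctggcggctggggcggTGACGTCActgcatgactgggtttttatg
Cyr61: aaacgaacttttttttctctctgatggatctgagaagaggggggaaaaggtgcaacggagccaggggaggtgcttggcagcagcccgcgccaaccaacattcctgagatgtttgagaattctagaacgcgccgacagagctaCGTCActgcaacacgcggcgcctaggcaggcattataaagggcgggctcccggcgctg
Gadd45g: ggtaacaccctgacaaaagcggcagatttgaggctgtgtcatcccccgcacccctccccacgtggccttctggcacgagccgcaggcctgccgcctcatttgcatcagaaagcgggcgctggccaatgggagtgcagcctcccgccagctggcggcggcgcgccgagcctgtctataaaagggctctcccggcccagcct

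Ier2 and Ier5 encode short-lived nuclear proteins that are related at their amino ends, and IER5 is a cofactor of the heat shock factor HSF1. Ier2 (chr8:84661331-84662852) had a saline and a cocaine level of 2.84 and 6.89 FPKM after 2 h, 4.81 and 5.93 after 24 h, and 3.39 and 4.99 after 7 d. The ratio was 2.43-fold at 2 h, rank 43 of 12800 genes, and 1.23-fold and 1.47-fold later. Its log2 ratio of 0.56 at 7 d was above the range of 9 in 10 genes at its level, and the 0.30 at 24 h was within it. Ier5 (chr1:155096361-155099636) had the highest FPKM of the 10 genes. It had a saline and a cocaine level of 21.0 and 36.4 FPKM after 2 h, 18.7 and 22.1 after 24 h, and 15.7 and 15.9 after 7 d. The ratio thus went from 1.73-fold over 1.18-fold to 1.01-fold, and at 7 d the cocaine level of Ier5 was within 2% of the saline level. Both genes were higher in cocaine at 2 h by more than 1.5-fold, but only Ier2 was more than 1.4-fold higher at 7 d, after 1.23-fold at 24 h.

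Btg2 and Csrnp1 act in the nucleus and in mRNA turnover: BTG2 recruits the CCR4-NOT deadenylase and restrains cell division, and CSRNP1 is a nuclear protein with transcriptional activity. Btg2 (chr1:134075170-134079120) had a saline and a cocaine level of 2.81 and 5.87 FPKM after 2 h, 3.87 and 5.03 after 24 h, and 3.59 and 5.05 after 7 d. Its ratios were 2.09-fold, 1.30-fold and 1.41-fold, and the log2 ratios at the later times, 0.38 and 0.49, were just above the range of 9 in 10 genes at its level. Csrnp1 had a saline and a cocaine level of 1.64 and 3.95 FPKM after 2 h, 2.36 and 3.95 after 24 h, and 1.78 and 2.42 after 7 d. Cocaine was above saline by 2.41-fold, 1.67-fold and 1.35-fold in order of time, and among the genes described it alone passed 1.5-fold at both 2 h and 24 h. The gene lies at chr9:119971163-119984742, but its deposited locus spans 173389 bases with 5 further named genes, which overlapping transcripts joined into 1 bundle. Among these, the microglial receptor gene Cx3cr1 had a saline and a cocaine level of 15.4 and 16.7 FPKM after 2 h, 16.4 and 15.1 after 24 h, and 13.3 and 15.9 after 7 d.

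Maff encodes a small MAF protein without an activation domain, which binds DNA as a partner of NRF2 and BACH factors. Its level was the lowest of the 10, under 1 FPKM in every group, so it did not pass the filter and is in no count of genes past it. Maff (chr15:79347541-79359072) had a saline and a cocaine level of 0.450 and 0.944 FPKM after 2 h, 0.614 and 0.619 after 24 h, and 0.474 and 0.446 after 7 d. It was 2.10-fold higher at 2 h, and 1.01-fold and 0.940-fold at the later times. The 24 h table holds a second locus of Maff just beyond the end of the gene (chr15:79359340-79360504), at 0.550 FPKM in saline and 0.604 in cocaine.

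Sik1 encodes a kinase of the AMPK family that is itself a CREB target and phosphorylates the CREB coactivators of the CRTC family, which keeps them out of the nucleus. Sik1 (chr17:31844248-31855792) had a saline and a cocaine level of 1.05 and 3.18 FPKM after 2 h, 1.24 and 1.85 after 24 h, and 0.686 and 1.05 after 7 d. The 3.03-fold ratio at 2 h was the largest of the 10 genes, rank 26 of 12800. At 24 h it was 1.498-fold, just under the 1.5-fold threshold, and at 7 d it was 1.53-fold at a mean level of 0.868 FPKM, too low to pass the filter. The cocaine level at 7 d equalled the saline level of 2 h to 3 digits, and the ratio at 7 d came with the lowest saline level of the 3 times.

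**Figure D2:**
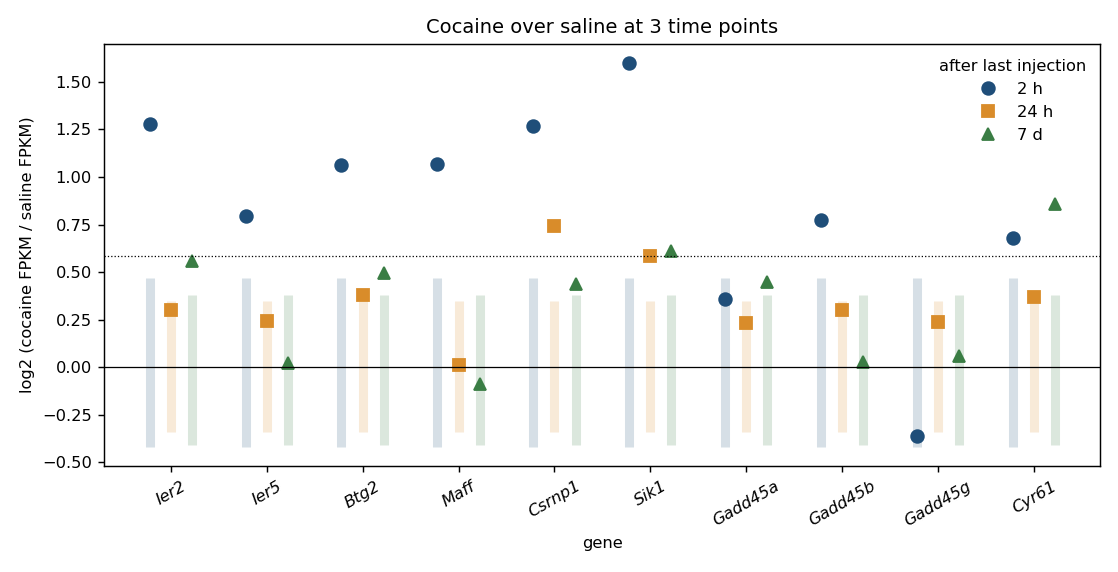
Log2 ratio of cocaine over saline FPKM (vertical axis) for each gene (horizontal axis) at 2 h (blue circles), 24 h (orange squares) and 7 d (green triangles). Pale bars span the 5th to 95th percentile of genes with a mean FPKM of 1 to 10 at the same time, and the dotted line marks 1.5-fold; at 2 h 8 of 10 genes, Maff included, lie above the line, with Sik1 the highest at 1.60.

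The GADD45 proteins are small acidic stress sensors that bind MAP kinase kinase kinases and cell cycle proteins and take part in DNA demethylation, and Gadd45b is known as an activity-induced gene in neurons. The 3 genes did not share a pattern. Gadd45b (chr10:80930091-80932204) had a saline and a cocaine level of 5.29 and 9.04 FPKM after 2 h, 7.23 and 8.89 after 24 h, and 6.78 and 6.91 after 7 d, and its ratio went from 1.71-fold over 1.23-fold to 1.02-fold. Gadd45a (chr6:67035096-67037407) had 2.55 and 3.27 FPKM after 2 h, 2.75 and 3.23 after 24 h, and 1.80 and 2.45 after 7 d. Its ratio stayed between 1.18-fold and 1.36-fold, and only its log2 ratio at 7 d, 0.45, was above the range of 9 in 10 genes at its level. Its deposited locus runs beyond the gene and shares a bundle with the noncoding transcript E230016M11Rik, which had 0.972 FPKM (saline) and 0.836 FPKM (cocaine) at 2 h; the library kit does not mark strand, so reads of overlapping genes cannot be told apart. Gadd45g (chr13:51846678-51848468) had a saline and a cocaine level of 8.38 and 6.53 FPKM after 2 h, 8.26 and 9.73 after 24 h, and 8.69 and 9.05 after 7 d. It was the only gene of the 10 lower in cocaine at 2 h (0.779-fold, log2 ratio −0.36), within the range of 9 in 10 genes at its level. Its saline level differed little between times, by at most 0.07 on the log2 scale, and its cocaine level was lowest at 2 h.

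Cyr61 (RefSeq symbol Ccn1, chr3:145646971-145649985) encodes a matrix protein that signals through integrins and is a classical target of the YAP coactivator and of serum response factor, best known in vessels. It had a saline and a cocaine level of 1.28 and 2.06 FPKM after 2 h, 1.58 and 2.04 after 24 h, and 1.24 and 2.25 after 7 d. The ratios were 1.60-fold, 1.29-fold and 1.81-fold, with rank 79 of 12844 genes at 7 d. Of the genes past 1.5-fold at 2 h, it alone had its largest ratio at 7 d. Markers of vascular and meningeal cells differed between the same groups. In saline and cocaine, 5 endothelial markers summed to 134 and 154 FPKM after 2 h (5 of 5 higher). Their sums were 148 in both after 24 h (2 of 5 higher), and 138 and 144 after 7 d (3 of 5 higher). Likewise 5 smooth muscle and pericyte markers summed to 56.8 and 58.6 FPKM after 2 h (4 of 5 higher). Their sums were 53.6 and 53.4 after 24 h (3 of 5 higher), and 43.8 and 51.8 after 7 d (5 of 5 higher). A set of 5 meningeal fibroblast markers summed to 55.9 and 64.8 FPKM after 2 h (5 of 5 higher), to 67.7 and 58.2 after 24 h (0 of 5 higher), and to 54.7 and 65.5 after 7 d (3 of 5 higher). The ratios of these sums were at most 1.20-fold. The largest log2 ratios of single markers at 7 d were 0.54 for Col1a1, 0.53 for Myh11 and 0.48 for Acta2, beside 0.86 for Cyr61. Dcn, Lum, Ly6c1 and Slco1c1 went the other way at 7 d, with log2 ratios of −0.03, −0.06, −0.04 and −0.03. The part of the vascular and meningeal markers in the Cyr61 values was not tested.

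Of the other cell types, 6 cortical neuron markers summed to between 700 and 798 FPKM in the 6 groups. These sums differed by at most 1.03-fold between cocaine and saline, with 5, 6 and 4 of 6 markers higher in order of time. Single neuron markers differed more, up to Neurod6 at 37.2 FPKM (saline) and 28.1 FPKM (cocaine) at 7 d, a log2 ratio of −0.41. In saline and cocaine, 5 red blood cell markers summed to 323 and 504 FPKM after 2 h (5 of 5 higher), to 458 and 504 after 24 h (3 of 5 higher), and to 452 and 529 after 7 d (5 of 5 higher). The 5 choroid plexus markers summed to 3.43 and 9.56 FPKM at 7 d with 3 of 5 higher, and 1 of them, Ttr, went from 0.284 to 6.54 FPKM while Folr1 and Clic6 were lower. Markers of oligodendrocytes summed to 715 and 595 FPKM at 24 h (0 of 5 higher). Markers of astrocytes were higher at 2 h (319 and 351 FPKM, 5 of 5), lower at 24 h (367 and 327 FPKM, 0 of 5 higher) and higher at 7 d (313 and 351 FPKM, 5 of 5). No marker was at 0. Their part in the values of the 10 genes was not tested.

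The smaller ratios at 24 h did not go with lower cocaine levels in all genes. In saline, 7 of the 9 genes past the filter were higher at 24 h than at 2 h, with a median log2 ratio of 0.30 against 0.019 for all genes. Saline Ier2 was 1.70-fold higher at 24 h (log2 ratio 0.76), and Csrnp1 (0.53), Btg2 (0.46) and Gadd45b (0.45) were also above the 95th percentile of genes at 1 to 10 FPKM, which was 0.43. In cocaine, the median of the same 9 genes was −0.025 and 2 of them were higher at 24 h. From 2 h to 24 h, saline moved more than cocaine in 6 of the 10 genes (Ier2, Btg2, Csrnp1, Gadd45a, Gadd45b and Cyr61). In Csrnp1, Gadd45a, Gadd45b and Cyr61 the cocaine level differed by less than 2% between these times. Cocaine moved more in the other 4: it was lower at 24 h in Sik1 (log2 change −0.78), Ier5 (−0.72) and Maff (−0.61), and higher in Gadd45g (0.58).

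**Figure D3:**
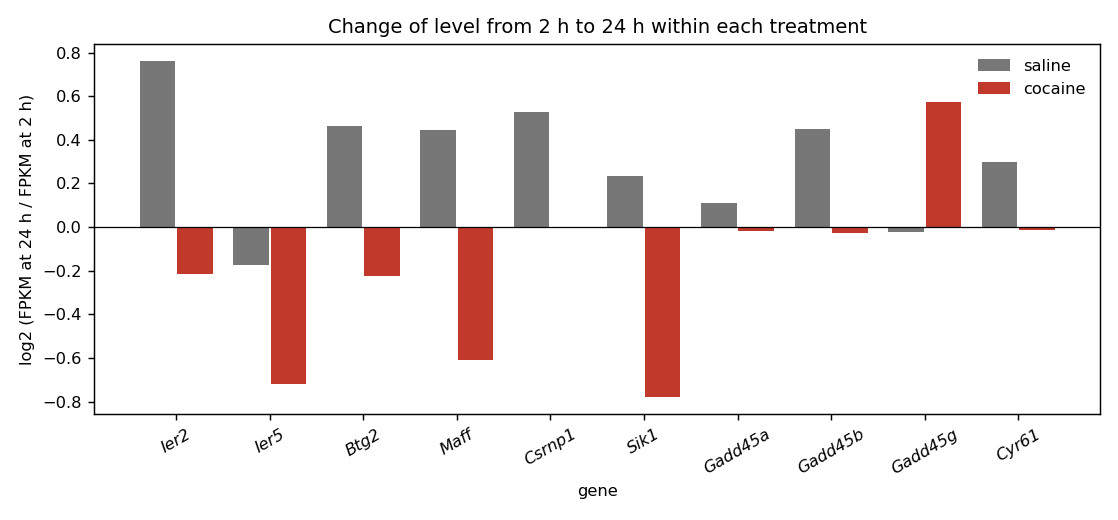
Log2 of the FPKM at 24 h over the FPKM at 2 h (vertical axis) within saline (grey bars) and within cocaine (red bars) for each of the 10 genes (horizontal axis), 1 value per bar and no error. Saline bars are the longer ones for 6 genes, led by Ier2 at 0.76, and cocaine bars for Sik1, Ier5, Maff and Gadd45g.

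At 7 d the saline levels had a median log2 ratio of 0.088 to those of 2 h over the 8 genes past the filter, with Sik1 (−0.61), Gadd45a (−0.50) and Ier5 (−0.42) the lowest of the 10 genes, and the cocaine levels were lower, with a median of −0.40. From 2 h to 7 d cocaine moved more than saline in 8 of the 10 genes. The largest moves were those of Sik1 (log2 change −1.60), Ier5 (−1.19) and Maff (−1.08), while Btg2 was lower by only 0.22 and Cyr61 was higher by 0.13. These comparisons set separately normalized tables side by side, and time after injection cannot be told apart from the cohort of mice or the hour of dissection.

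The difference between the log2 ratios of 2 time points does not depend on a level shift that both groups of a time share. From 2 h to 24 h the ratio was smaller by 1.02 in Sik1, 0.98 in Ier2 and 0.69 in Btg2. These were beyond the 95th percentile of genes at 1 to 10 FPKM, 0.53. The ratio was also smaller by 1.05 in Maff and 0.55 in Ier5, which lay outside this level (mean of 0.697 and 28.7 FPKM at 2 h). The percentile is therefore not one of genes at their level. Csrnp1, at 0.53, was at that percentile, and Gadd45b (0.47), Cyr61 (0.31) and Gadd45a (0.13) were within the range. Gadd45g went the other way by 0.60, beyond the 5th percentile of −0.50. From 24 h to 7 d Cyr61 alone of the genes past the filter gained as much as 0.49 in log2 ratio. That gain lay at the edge of the range of genes at 1 to 10 FPKM, whose 5th percentile (24 h less 7 d) was −0.49.

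Other members of the same families were set beside the 10 genes. Of 16 such genes named in a list, 15 were found and 13 passed the filter, of which 4 (30.8%) were at least 1.5-fold higher in cocaine at 2 h and none at 24 h or 7 d. Ier5l, the closest relative of Ier5, had 5.88 FPKM (saline) and 11.8 FPKM (cocaine) at 2 h (2.00-fold), and Ier3, which shares only the name, was at 7.12 and 11.0 FPKM (1.55-fold). Mafk, a small MAF like Maff, was at 2.14 and 3.27 FPKM (1.53-fold), and Ctgf, a gene of the CCN family like Cyr61, at 2.32 and 3.80 FPKM (1.64-fold). At 7 d Ctgf was at 1.86 and 2.48 FPKM (1.33-fold). Wisp1, a further CCN gene under the filter, was at 0.508 and 1.43 FPKM at 2 h.

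The relatives of Btg2, Csrnp1 and Sik1 had smaller ratios than these genes. Btg1, Btg3, Tob1 and Tob2 had ratios between 0.893-fold and 1.09-fold at 2 h beside 2.09-fold for Btg2. Csrnp2 and Csrnp3 were at 1.08-fold and 1.09-fold beside 2.41-fold for Csrnp1. Sik2 was at 4.13 FPKM in saline and 5.17 in cocaine and Sik3 had a ratio of 1.04-fold, beside 3.03-fold for Sik1. With 1 pooled value per group, none of these differences was tested.

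**Figure D4:**
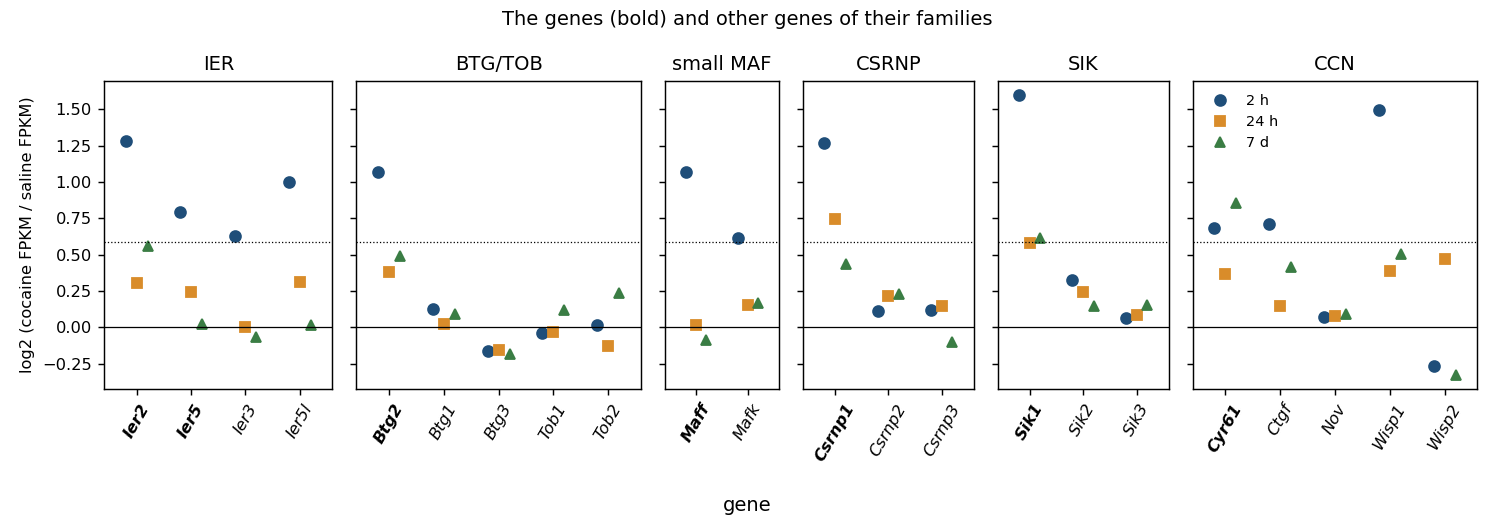
Log2 ratio of cocaine over saline FPKM (vertical axis) at 2 h (blue circles), 24 h (orange squares) and 7 d (green triangles) for the genes described here (bold) and for relatives in 6 families (horizontal axis, 1 panel per family); the dotted line marks 1.5-fold. Ier5l, Ier3, Mafk and Ctgf lie above the line at 2 h, and the relatives of Btg2, Csrnp1 and Sik1 lie below it at all times. Maff, Wisp1 and Wisp2 are under 1 FPKM in mean level, as is Sik1 at 7 d.

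A list of 34 genes for proteins that work with the 10 (CREB and its coactivators, serum response factor and its partners, BACH and NRF factors, deadenylase subunits, stress kinases, integrins and others) held 32 found genes. None of the 30, 29 and 30 genes past the filter at 2 h, 24 h and 7 d was 1.5-fold higher in cocaine. Srf had 9.92 FPKM (saline) and 13.8 FPKM (cocaine) at 2 h (1.39-fold). Bach2, a repressor that pairs with small MAF proteins, was the only gene of the list that passed both the filter and 1.5-fold in the other direction, at 1.73 and 0.860 FPKM at 2 h (log2 ratio −1.01). It was at 1.09 and 0.564 FPKM at 24 h, under the filter, and at 1.11 and 1.51 FPKM at 7 d.

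Beside these, 54 other immediate-early genes were listed, of which 50, 50 and 48 passed the filter. The number at least 1.5-fold higher in cocaine was 27 (54.0%) after 2 h, 14 (28.0%) after 24 h and 7 (14.6%) after 7 d. Their median log2 ratios were 0.79, 0.21 and 0.13. Among the genes past the filter, the largest ratios at 2 h were those of Arc (5.59 and 77.8 FPKM, 13.9-fold), Egr2 (0.466 and 5.72 FPKM, 12.3-fold) and Fos (2.02 and 14.3 FPKM, 7.06-fold), above every ratio of the genes described here. At 24 h they were those of Egr2 (3.21-fold), the clock gene Per2 (2.42-fold) and Fos (2.34-fold), and at 7 d those of Arc (3.33-fold), Fos (2.93-fold) and Egr1 (1.70-fold). Egr2 was under the filter at 7 d, with 0.206 and 0.750 FPKM (3.64-fold). In the other direction, only Nr4a2 of the genes past the filter passed 1.5-fold, at 24 h, with 2.56 and 1.49 FPKM. The study instead lists Nr4a2 as higher in cocaine at 24 h, by RNA-seq and by RT-PCR, with neither value marked significant. In saline, 31 of these 50 genes were higher at 24 h than at 2 h and 11 by at least 1.5-fold, with a median log2 ratio of 0.073 beside 0.30 for the 9 genes above. In cocaine, 7 of the 50 were higher at 24 h than at 2 h and 13 were at least 1.5-fold lower. The cocaine median was −0.393, beside −0.025 for the 9 genes above. The share of all genes past 1.5-fold between these times was not counted.

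Ranked by the distance of their 3 log2 ratios from the medians of all 10 genes (0.93, 0.30 and 0.44), the nearest of 12388 genes that reached a mean of 1 FPKM at each time were Inhbb, Egr4, Kdm6b, Hic1 and Sox8, at distances of 0.132 to 0.243. Inhbb, a subunit gene of activin and inhibin, had 1.76 FPKM (saline) and 3.34 FPKM (cocaine) at 2 h. Egr4, a transcription factor gene, was at 11.1 and 23.3 FPKM at 2 h. Kdm6b, a histone H3 lysine demethylase gene, was at 1.21 and 2.45 FPKM at 2 h, whereas the study lists an unchanged RNA-seq ratio for it at that time. The likeness rests on 3 ratios and 6 pooled values per gene.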

How the data were processed

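The authors sequenced poly(A) RNA libraries with an unstranded kit, trimmed and aligned the reads with TopHat2 and ran Cuffdiff on the groups of each time point. Per the labels, the processing notes name CASAVA 1.8.2, Trimmomatic 0.32, TopHat2 2.0.12 and Cufflinks 2.2.1. The 3 tables that the authors deposited hold 1 FPKM per group and locus, pooled over the 2 libraries of the group. Their columns of the authors' own comparison (fold change, test statistic, p and q values) were not used. The pooled values give no depth, no error and no test.

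Columns were taken as saline, then cocaine. Their names leave the order open, and in the study's supplementary tables the FPKM of 445 of 451, 14 of 14 and 512 of 519 genes at 2 h, 24 h and 7 d were nearer to this order than to the reverse. Loci overlapped 99.9%, 99.8% and 99.8% of the RefSeq genes of that name on GRCm38, the build that positions are given in, and 15.7% of the genes on NCBIM37, although the study's methods name mm9. Only loci with a single gene name were used, and the longest locus stood for a name. The log2 ratio of cocaine over saline FPKM had no pseudocount, and the filter was a mean FPKM of at least 1. A gene was counted past 1.5-fold.

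The members and lists were chosen with earlier results of these data known. Named were all 10 genes, every family or partner gene past the filter and 1.5-fold, the 3 largest ratios per time of the other immediate-early genes, filtered or not, and the 5 nearest genes. The other relatives, Wisp1, Srf, Cx3cr1, E230016M11Rik, Nr4a2, Egr1 and the single marker genes were named after their values were seen. Alternatives were other folds, pseudocounts, filters, loci, centring and removal of a trend of the ratio with transcript length. Scripts (Python 3.11.15, pandas 2.3.3, numpy 2.4.6, matplotlib 3.10.9) were tested on simulated data.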

Additional observations from a re-analysis of the deposited data

How the results depend on the processing

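Of 150 single-gene log2 ratios under 5 alternatives, 131 were within 0.1 of the value given, a tolerance set because no replicate spread is known, and none changed sign. Of the other 19, a pseudocount of 1 lowered 14, by up to 0.645. Much of the agreement was fixed by the alternatives chosen. Taking the locus with the highest FPKM shifted none of its 30 ratios. Centring on the median of all genes shifted its 30 ratios by at most 0.025. A pseudocount added to both groups cannot change the sign of a ratio. At 2 h, where 7 of 9 genes passed 1.5-fold, 4 passed 2-fold. With the filter at 5 FPKM, 2 of the 3 genes left passed 1.5-fold, and their median log2 ratio was 0.773. Without the filter the median was 0.93. At 24 h, the count of 1 became 4 at the lower fold threshold, 0 at 2-fold and 0 with a pseudocount of 1. It was 0 of the 4 genes left with the filter at 5 FPKM. At 7 d, the count of 1 became 5 at the lower fold threshold, 0 at 2-fold, 0 with a pseudocount of 1 and 2 without the filter. It was 0 of the 3 genes left with the filter at 5 FPKM, and 2 with the trend of the ratio with transcript length removed. The 7 d median of 0.44 became 0.299 with a pseudocount of 1 and 0.028 with the filter at 5 FPKM. Across genes the ratio was larger for longer transcripts, most of all at 7 d (Spearman's rho 0.478, beside 0.159 at 2 h and 0.086 at 24 h; genes are not independent replicates). The saline median of 24 h over 2 h became 0.175 with a pseudocount of 1. A pseudocount shrinks ratios of low genes by construction, and a higher filter leaves fewer genes; the cause was not tested for the trend with length. No paired analysis was possible because the tables give 1 FPKM for both libraries of a group together, and for the same reason no replicate could be left out. Depth is unknown, so counting error could not be set beside any ratio.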
